A study of Mus musculus with 9 samples.

Results

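The RNA of 10 immediate early genes was followed in mouse neural stem cells (NSCs): the AP-1 genes Fos, Fosb, Fosl1, Fosl2, Jun, Junb and Jund, the zinc finger genes Egr1 and Egr2, and Ier2. The genes were taken by symbol through their Ensembl identifiers, and all 10 were found among the 55704 genes of the table and passed the filter on low values that left 20207 genes. The NSCs came from the subventricular zone of wild-type C57BL/6 mice aged 8 to 9 weeks, with 2 females and 2 males pooled in an isolation. They were passaged at least 3 times with bFGF and EGF (20 ng/mL each) and then grown adherent on poly-L-ornithine and laminin for 16 to 18 hours. The bFGF/EGF-treated NSCs were collected at that point (day 0), the bFGF/BMP4-treated NSCs after 6 days with BMP4 in place of EGF, and the BMP4-treated NSCs after 6 days with BMP4 in place of both factors (20 ng/mL of each factor used). Each group had 3 libraries, which the submitters call biological replicas. It is not stated whether these were separate isolations, so the p-values measure the spread between these libraries, which may be partly technical. The bFGF/EGF-treated NSCs were not kept for the same time, and the labels name B27 minus vitamin A for their medium and B27 for the BMP4 media, so treatment, time and supplement cannot be told apart in a comparison with them. The comparison of the BMP4-treated with the bFGF/BMP4-treated NSCs, both at day 6, differs by bFGF.

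Immediate early genes are transcribed within minutes of a growth factor or stress signal, without new protein synthesis. bFGF and EGF act on receptor tyrosine kinases, whose ERK cascade phosphorylates Ets factors that sit with serum response factor (SRF) on CArG boxes of such genes, while CREB acts through the cyclic AMP response element (CRE). Jun proteins pair with each other or with Fos proteins to make the AP-1 factor, Fos proteins need a Jun partner, and many of the transcripts are short-lived. BMP4 acts through another route, receptor serine/threonine kinases and SMAD proteins.

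The upstream sequence of 5 of the genes is shown because it holds the element through which the signals above are known to act, the CArG box or the CRE. The window read was 500 bases before to 100 bases after the start of the canonical transcript (GENCODE vM39) on GRCm39, for 13402 protein-coding genes tested, and both strands were searched. Of the 10 genes 9 were scanned, since the sequence around Egr1 was not used here. The CArG box was found in Fos, Fosb and Egr2 and in 2.92% of all promoters scanned. The CRE, searched as TGACGTCA, was found in Jund and Ier2 and in 3.71% of all promoters. The Ets motif CCGGAA was found in Junb and Egr2 and in 31.6% of all promoters, the Egr motif GCGNGGGCG in Fosb, Jun and Jund and in 11.7%. The AP-1 element TGACTCA was found in none of the 9 and in 7.25% of all promoters. A match is a description and not a binding site, and no match says only that these letters are not in the window. Each line below runs 5′ to 3′ on the strand of the gene, with the CArG box, the Ets motif or the CRE in capitals. The lines cover chr12:85520313-85520412 on the plus strand (Fos), chr7:19044187-19044286 on the minus strand (Fosb), chr10:67373252-67373361 on the plus strand (Egr2), chr8:71151339-71151438 on the plus strand (Jund) and chr8:85389494-85389593 on the minus strand (Ier2).
Fos: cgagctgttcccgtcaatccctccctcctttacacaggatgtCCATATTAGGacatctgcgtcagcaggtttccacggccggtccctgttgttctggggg
Fosb: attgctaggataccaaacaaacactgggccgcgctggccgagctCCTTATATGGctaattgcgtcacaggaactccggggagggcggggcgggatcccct
Egr2: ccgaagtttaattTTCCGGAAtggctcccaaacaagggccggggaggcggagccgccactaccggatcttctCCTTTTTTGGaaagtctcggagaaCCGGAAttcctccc
Jund: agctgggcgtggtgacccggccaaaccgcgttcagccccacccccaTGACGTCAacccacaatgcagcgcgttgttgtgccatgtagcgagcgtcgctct
Ier2: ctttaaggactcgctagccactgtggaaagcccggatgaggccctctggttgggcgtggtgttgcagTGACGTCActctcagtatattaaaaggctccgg
In Fos the CArG box began at -303, counted from the start, and in Fosb at -266. The letters TGCGTCA followed at -288 in Fos and at -251 in Fosb. That motif was added after the sequences were seen, and was present in 4.51% of all promoters and in 3 of the 9, with Fosl1 as the other. Egr2 held a pair of CArG boxes, the first at -368 with an Ets motif at -344 and 2 overlapping Ets motifs at -427 and -425, and the second at -65. The CRE lay at -214 in Jund and at -43 in Ier2.

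On GRCm39, Fos lies at chr12:85520658-85524047, Fosb at chr7:19036621-19043976, Fosl1 at chr19:5497575-5505974, Fosl2 at chr5:32292707-32315186, Jun at chr4:94937271-94940459, Junb at chr8:85701113-85705359, Jund at chr8:71151599-71153265, Egr1 at chr18:34992876-34998049, Egr2 at chr10:67371305-67378018 and Ier2 at chr8:85387960-85389483. The genes were short and spanned 1524 bases (Ier2) to 22480 bases (Fosl2), against a median of 26462 bases over 13787 protein-coding genes tested. Jun, Junb, Jund and Ier2 had 1 exon in their canonical transcript, which held for 2.93% of those genes. The 3′ UTR of 6 of the 10 contained TATTTAT, the core of the AU-rich elements through which early transcripts are known to be degraded, against 32.5% of 13633 3′ UTRs. Fosl2 held 3 copies, Fos 2, and Fosb, Fosl1, Jun and Jund 1 each. Of 8 annotated genes that overlap a member on the opposite strand 4 were in the table. The other 4, long noncoding RNAs at Fosl1, Fosl2, Junb and Egr2, were not analysed here. The strand setting of the counting is not stated, so reads of the partners could be mixed. Prdx2, which overlaps Junb over 1238 bases, stood at 121 ± 22 FPKM with bFGF/EGF, 109 ± 1.10 with bFGF/BMP4 and 161 ± 40.7 with BMP4 (SD, n = 3). Ccdc85b, which overlaps Fosl1, stood at 18.5 ± 3.62, 10.0 ± 2.13 and 8.43 ± 0.963 FPKM. Junos stayed at or below 0.38 FPKM beside Jun, and Gm11175 beside Jund was listed at 0. The part of such reads in the values of Junb and Fosl1 was not tested.

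FPKM (fragments scaled by transcript length and library size) is a level per length and can be compared between genes. The libraries held 15892841 to 17224028 fragments on genes, as rebuilt from the FPKM. A gene was called between 2 groups at an adjusted p of at most 0.05 (limma on log2(FPKM + 0.1), Benjamini-Hochberg over all 20207 genes) and a change of at least 2-fold. All log2 fold changes are on that scale, which understates the change of the lowest genes. In bulk RNA, fewer cells of a type and less RNA per cell cannot be told apart. Of the NSC markers, Sox2 stood at 121 to 202 FPKM and Slc1a3 at 66.4 to 152 FPKM in all 9 libraries, while Nes, at 145 to 157 FPKM with bFGF/EGF, stood at 2.96 to 3.94 FPKM with bFGF/BMP4 and at 10.7 to 20.7 FPKM with BMP4. Gfap, which astrocytes and quiescent NSCs share, was at most 0.134, 21.6 and 3038 FPKM in the 3 groups. Pax6 stood at 1.53 ± 0.226, 4.80 ± 0.265 and 7.16 ± 0.433 FPKM and was called higher in both day 6 groups than with bFGF/EGF. Prom1 stood at 0.660 ± 0.146, 0.151 ± 0.0356 and 2.49 ± 1.10 FPKM. It was called lower with bFGF/BMP4 than with bFGF/EGF, and higher with BMP4 than in both other groups. Summed markers of other cells moved with the groups. Oligodendrocyte lineage markers, mostly Olig2, went from 447 to 656 FPKM with bFGF/EGF to 202 to 329 with bFGF/BMP4 and 46.8 to 71.4 with BMP4. Ependymal markers, mostly Foxj1, went from 6.13 to 10.8 and 9.47 to 10.4 to 52.2 to 61.8. Foxj1 stood at 8.26 ± 2.35, 10.0 ± 0.503 and 55.1 ± 5.33 FPKM, while Ccdc153 was at most 0.849 FPKM. The study reported higher Foxj1 with BMP4 than with bFGF/BMP4, but cilia unlike those of ependymal cells. Neuron and neuroblast markers went from 72.3 to 88.0 and 47.4 to 53.2 to 142 to 213. The last was carried by Tubb3, at 20.3 ± 4.02, 17.0 ± 3.32 and 145 ± 39.9 FPKM. Tubb3, Dcx (log2 1.82) and Snap25 (log2 1.81) were called higher with BMP4 than with bFGF/BMP4, and Rbfox3 lower (log2 -1.47). Dcx ranged from 0.342 to 1.99 FPKM among the BMP4 libraries. Map2 stood at 56.2 ± 11.1, 30.5 ± 2.18 and 34.1 ± 5.32 FPKM and was called in no comparison. Microglia markers summed to at most 1.54 FPKM and endothelial and mural markers to at most 1.98 FPKM, with Cldn5 at 0 in all libraries, as was the ependymal Tmem212. Of 14 heat shock genes, some answer handling stress. The 14 summed to 1782 to 1810 FPKM with bFGF/EGF, 1105 to 1348 with bFGF/BMP4 and 1130 to 1471 with BMP4. That sum was mostly Hsp90ab1, at 811 ± 61.9, 489 ± 36.8 and 375 ± 26.5 FPKM, and Hspa8, at 400.1 ± 25.3, 309 ± 51.1 and 323 ± 37.4 FPKM. The stress-inducible Hspb1 went the other way, at 0.829 ± 0.0802, 2.98 ± 0.579 and 97.9 ± 47.3 FPKM. Hspb1, Hspa1a, Hspa1b and Dnajb4 were called higher with BMP4 than in both other groups, as were Fos, Fosl2 and Junb. Bag3 was called higher in both day 6 groups than with bFGF/EGF (log2 2.20 with bFGF/BMP4 and 2.33 with BMP4). Hsp90ab1, Hspe1 and Hspd1 were called lower with BMP4 than with bFGF/EGF, and Hspe1 also with bFGF/BMP4. The other heat shock genes were called in no comparison. Whether these differences have a part in the values of the early genes was not tested.

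With bFGF/BMP4, 5 of the 10 genes were called lower than with bFGF/EGF (Egr1, Egr2, Ier2, Jun and Fosl1) and 0 were called higher, against 14.1% of all genes lower and 16.5% higher. With BMP4 alone, 3 were called lower than with bFGF/EGF (Egr1, Egr2 and Jun) and 3 higher (Fos, Fosl2 and Junb), against 15.4% of all genes lower and 21.3% higher. Between BMP4 and bFGF/BMP4, Fos, Fosl2 and Junb were called higher with BMP4 and 0 were called lower, against 8.41% of all genes higher and 5.14% lower. The median log2 fold change of the 10 genes was -0.82, -0.58 and 0.65 in the 3 comparisons, against 0.06, 0.10 and 0.00 over all genes tested. By limma at an unadjusted p under 0.05, still 0 were higher in the first comparison and 0 lower in the third, and limma-voom called 5, 6 and 3 of the 10. Both comparisons with bFGF/EGF share its 3 libraries.

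**Figure D1:**
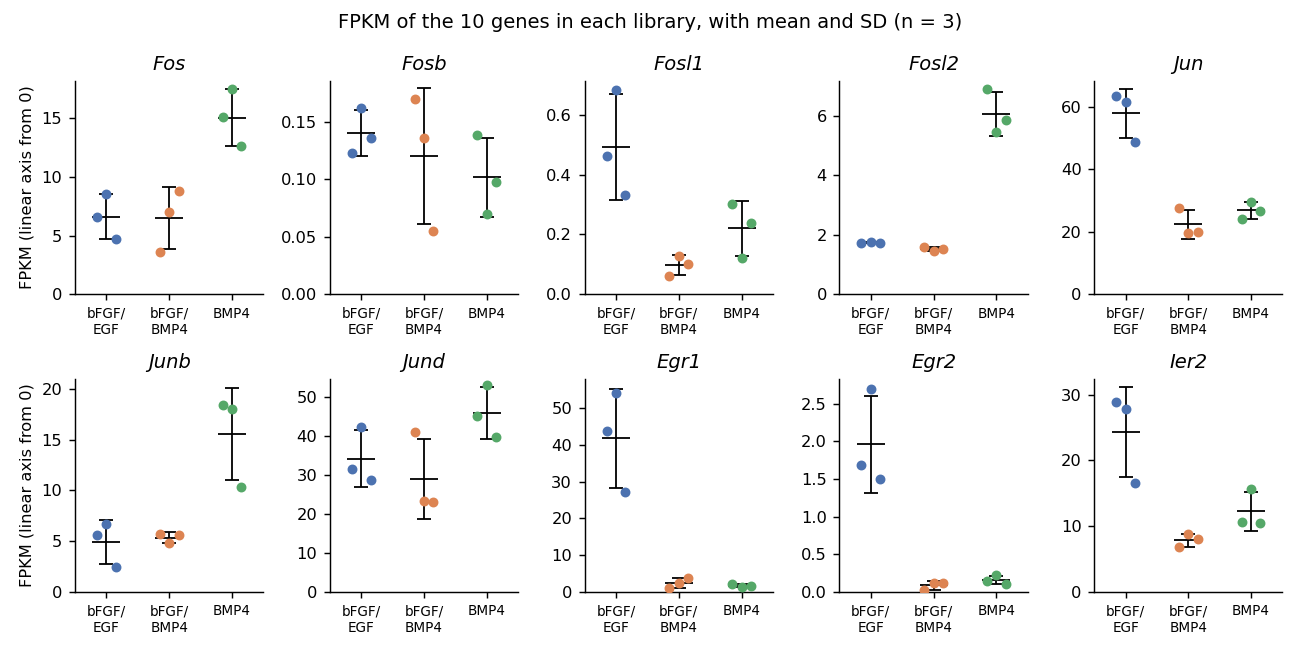
FPKM (y axis, linear and starting at 0, its range set for each gene) of the 10 genes in each library of the 3 groups (x axis), with points for libraries 1 to 3 from left to right and black bars for the mean and SD (n = 3). The points of Egr1 lie at 27.2 to 54.2 FPKM with bFGF/EGF and at 3.75 or less in the 6 other libraries, while those of Fos, Fosl2 and Junb are highest with BMP4.

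The Egr genes encode zinc finger factors of the immediate early response. Egr1 stood at 43.9, 54.2 and 27.2 FPKM in the 3 bFGF/EGF libraries, at 1.10, 2.49 and 3.75 with bFGF/BMP4 and at 1.99, 1.25 and 1.68 with BMP4. Every day 6 library lay below every bFGF/EGF library, and the 2 day 6 groups overlapped. The group means were 41.8 ± 13.6, 2.44 ± 1.33 and 1.64 ± 0.371 FPKM (SD, n = 3), 17.1-fold lower with bFGF/BMP4 and 25.5-fold lower with BMP4. Egr1 fell by 4.14 ± 0.40 (SE) on the log2 scale with bFGF/BMP4 (adjusted p = 2.21e-05) and by 4.56 ± 0.40 with BMP4 (adjusted p = 7.85e-06). The difference between the 2 day 6 groups was -0.41 (95% interval -1.31 to 0.48, adjusted p = 0.535), which shows neither a change nor a like level. Among all genes tested, the level of Egr1 moved from the 94.0th percentile with bFGF/EGF to the 50.3rd with bFGF/BMP4 and the 43.3rd with BMP4.

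Egr2, which also controls the myelin genes of Schwann cells, stood at 1.68, 2.70 and 1.5 FPKM with bFGF/EGF, at 0.0183, 0.115 and 0.120 with bFGF/BMP4 and at 0.145, 0.218 and 0.107 with BMP4. All 6 day 6 libraries were below all 3 bFGF/EGF libraries. The day 6 values rest on few fragments, 1, 6 and 6 with bFGF/BMP4 and 8, 12 and 6 with BMP4, against 97, 145 and 90 with bFGF/EGF. Egr2 fell by 3.49 ± 0.37 (SE) on the log2 scale with bFGF/BMP4 (adjusted p = 4.04e-05) and by 2.98 ± 0.37 with BMP4 (adjusted p = 8.19e-05). The size depended on the value added before the logarithm. Over the alternatives that tested Egr2, the 2 log2 changes ran from -4.64 to -1.43 and from -3.57 to -1.33, with every one called. With a filter of a mean of at least 1 FPKM, Egr2 was not tested. BMP4 against bFGF/BMP4 gave 0.51 (95% interval -0.32 to 1.34, adjusted p = 0.397).

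Ier2, an early gene of a single exon that answers growth factors, stood at 28.8, 27.8 and 16.5 FPKM with bFGF/EGF, at 6.82, 8.72 and 7.99 with bFGF/BMP4 and at 10.6, 15.7 and 10.5 with BMP4. The 3 groups did not overlap, with BMP4 between the others. It fell by 1.59 ± 0.23 (SE) on the log2 scale with bFGF/BMP4 (adjusted p = 0.00033). With BMP4 the difference of -0.97 ± 0.23 (adjusted p = 0.00546) was just short of 2-fold and not called, and it passed on the TPM scale (-1.06), under median-ratio scaling (-1.01), without bFGF/EGF replicate 3 (-1.23) and without BMP4 replicate 2 (-1.16). The BMP4-treated NSCs were 1.56 times as high as the bFGF/BMP4-treated, a log2 difference of 0.62 (95% interval 0.09 to 1.14, adjusted p = 0.0949) that was not called.

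Jun, which can pair with itself and is the target of the JNK kinases, stood at 63.4, 61.5 and 48.8 FPKM with bFGF/EGF, at 27.6, 19.6 and 19.8 with bFGF/BMP4 and at 24.0, 29.6 and 26.7 with BMP4. All day 6 libraries lay below all bFGF/EGF libraries, and the day 6 groups overlapped. Jun fell by 1.38 ± 0.16 (SE) on the log2 scale with bFGF/BMP4 (adjusted p = 8.14e-05) and by 1.11 ± 0.16 with BMP4 (adjusted p = 0.000267), which was 2.59- and 2.16-fold lower by the means of 57.9 ± 7.92, 22.3 ± 4.56 and 26.8 ± 2.77 FPKM. Between BMP4 and bFGF/BMP4 the difference was 0.27 (95% interval -0.09 to 0.64, adjusted p = 0.294).

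Junb, known as a restraint on Jun and on the cell cycle in some cells, stood at 5.55, 6.71 and 2.43 FPKM with bFGF/EGF, at 5.68, 4.76 and 5.58 with bFGF/BMP4 and at 18.4, 18.0 and 10.3 with BMP4. The BMP4 libraries were above all 6 others, and the other 2 groups overlapped. Junb rose by 1.72 ± 0.35 (SE) on the log2 scale from bFGF/EGF to BMP4 (adjusted p = 0.00196) and by 1.48 ± 0.35 from bFGF/BMP4 to BMP4 (adjusted p = 0.0124). The second call was lost without bFGF/BMP4 replicate 2 (1.4, adjusted p = 0.0557), BMP4 replicate 1 (1.34, adjusted p = 0.0656) or BMP4 replicate 2 (1.35, adjusted p = 0.058). From bFGF/EGF to bFGF/BMP4 the difference was 0.24 (95% interval -0.54 to 1.01, adjusted p = 0.607).

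Jund, the Jun gene that is expressed at rest in many cells, stood at 31.7, 42.5 and 28.6 FPKM with bFGF/EGF, at 41.0, 23.3 and 23.1 with bFGF/BMP4 and at 45.1, 53.1 and 39.8 with BMP4. The 3 groups overlapped. No comparison called it: the log2 difference was -0.27 (95% interval -0.80 to 0.26) with bFGF/BMP4 against bFGF/EGF, 0.43 (-0.09 to 0.96) with BMP4 against bFGF/EGF and 0.70 (0.17 to 1.23, adjusted p = 0.0631) with BMP4 against bFGF/BMP4.

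Fos, the best known partner of Jun in AP-1, stood at 6.55, 8.55 and 4.69 FPKM with bFGF/EGF, at 3.60, 6.98 and 8.82 with bFGF/BMP4 and at 15.1, 17.5 and 12.6 with BMP4. The BMP4 libraries lay above all 6 others, which overlapped. Fos rose by 1.21 ± 0.32 (SE) on the log2 scale from bFGF/EGF to BMP4 (adjusted p = 0.00871) and by 1.29 ± 0.32 from bFGF/BMP4 to BMP4 (adjusted p = 0.016), 2.28- and 2.33-fold by the means of 6.60 ± 1.93, 6.47 ± 2.65 and 15.1 ± 2.44 FPKM. Without bFGF/EGF replicate 3 the first was 0.99 and missed the 2-fold threshold. The second was lost without bFGF/BMP4 replicate 1 (0.92), BMP4 replicate 1 (1.28, adjusted p = 0.0632) or BMP4 replicate 2 (1.17, adjusted p = 0.0691). Between bFGF/BMP4 and bFGF/EGF the difference was -0.08 (95% interval -0.79 to 0.63).

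Fosl2, which encodes the Fos-related antigen Fra-2, stood at 1.71, 1.74 and 1.72 FPKM with bFGF/EGF, at 1.59, 1.45 and 1.5 with bFGF/BMP4 and at 6.91, 5.47 and 5.87 with BMP4. The 3 groups did not overlap, and the bFGF/BMP4 libraries lay just below the bFGF/EGF libraries. Fosl2 rose by 1.76 ± 0.15 (SE) on the log2 scale from bFGF/EGF to BMP4 (adjusted p = 5.87e-06) and by 1.93 ± 0.15 from bFGF/BMP4 to BMP4 (adjusted p = 1.79e-05), 3.53- and 4.02-fold by the means, and both calls held when any 1 library was left out. The difference of -0.18 (95% interval -0.51 to 0.15, adjusted p = 0.353) between bFGF/BMP4 and bFGF/EGF was not called.

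Fosl1, which encodes Fra-1, was low throughout, at 0.463, 0.684 and 0.334 FPKM with bFGF/EGF, 0.0612, 0.128 and 0.10 with bFGF/BMP4 and 0.303, 0.122 and 0.239 with BMP4. These are 16, 22 and 12 fragments, 2, 4 and 3 fragments, and 10, 4 and 8 fragments. All bFGF/EGF libraries were above both day 6 groups, which overlapped. Fosl1 fell by 1.57 ± 0.37 (SE) on the log2 scale with bFGF/BMP4 (adjusted p = 0.00609), a call lost with a pseudocount of 1 (-0.44). With BMP4 the difference was -0.89 (adjusted p = 0.0686), and it passed without bFGF/EGF replicate 3 (-1.09) or without BMP4 replicate 1 (-1.07).

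Fosb stood at 0.0545 to 0.170 FPKM, or 5 to 17 fragments, in all 9 libraries, and its 3 groups overlapped. No comparison called it, and the log2 differences of -0.16, -0.26 and -0.10 had 95% intervals of -1.0 to 0.67, -1.10 to 0.57 and -0.94 to 0.73. The added 0.1 FPKM is close to the level of Fosb itself, so these values understate its change and give no limit on the fold of the FPKM.

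**Figure D2:**
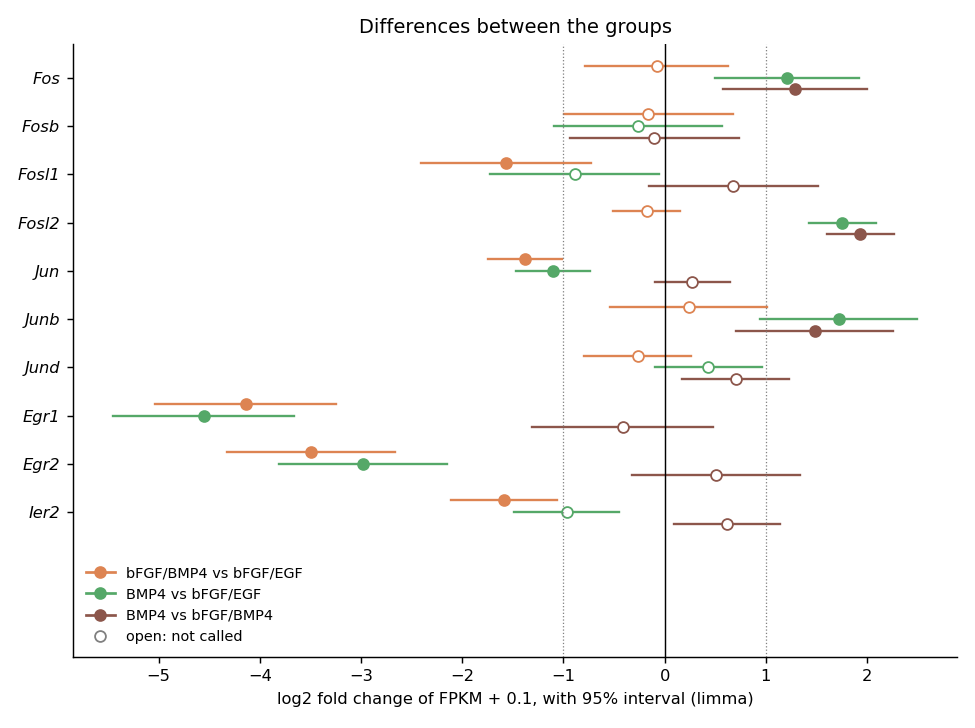
Log2 fold change (x axis, FPKM + 0.1, limma) of the 10 genes (y axis) in the 3 comparisons, with 95% intervals as lines, filled points for called genes, open points for the others, and dotted lines at a 2-fold change. Egr1 and Egr2 lie furthest to the left in both comparisons with bFGF/EGF, and Fos, Fosl2 and Junb lie to the right in both comparisons that involve BMP4 alone.

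The order of the genes by level changed with the groups. With bFGF/EGF it ran Jun (57.9 FPKM), Egr1 (41.8), Jund (34.3), Ier2 (24.4), Fos (6.60), Junb (4.90), Egr2 (1.96), Fosl2 (1.72), Fosl1 (0.494) and Fosb (0.140), and neighbours overlapped except between Ier2 and Fos, Fosl2 and Fosl1, and Fosl1 and Fosb. With bFGF/BMP4 it ran Jund (29.1), Jun (22.3), Ier2 (7.84), Fos (6.47), Junb (5.34), Egr1 (2.44), Fosl2 (1.51), Fosb (0.120), Fosl1 (0.0966) and Egr2 (0.0845), with gaps below Jun, below Junb and below Fosl2. With BMP4 it ran Jund (46.0), Jun (26.8), Junb (15.6), Fos (15.1), Ier2 (12.2), Fosl2 (6.08), Egr1 (1.64), Fosl1 (0.221), Egr2 (0.157) and Fosb (0.102). There the neighbours overlapped from Junb to Ier2 and from Fosl1 to Fosb.

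Within the AP-1 families the summed FPKM and its make-up were compared as a description, without a test. The Fos family summed to 8.96 ± 2.13 FPKM with bFGF/EGF, 8.20 ± 2.57 with bFGF/BMP4 and 21.5 ± 2.33 with BMP4 (SD, n = 3). Fos itself was 73.0 ± 4.38, 77.0 ± 9.33 and 69.9 ± 4.84% of that sum, and Fosl2 20.0 ± 4.70, 20.1 ± 8.06 and 28.5 ± 4.24%. The Jun family summed to 97.1 ± 15.7, 56.8 ± 15.1 and 88.3 ± 12 FPKM, of which Jun made up 59.9 ± 3.87, 39.7 ± 2.21 and 30.5 ± 3.8%. Junb made up 4.87 ± 1.60, 9.72 ± 1.95 and 17.4 ± 3.81%, and Jund 35.3 ± 3.49, 50.6 ± 4.05 and 52.0 ± 0.647%. Jun thus held the largest share with bFGF/EGF and Jund in both day 6 groups, while Fos held the largest share of its family in all 3 groups.

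**Figure D3:**
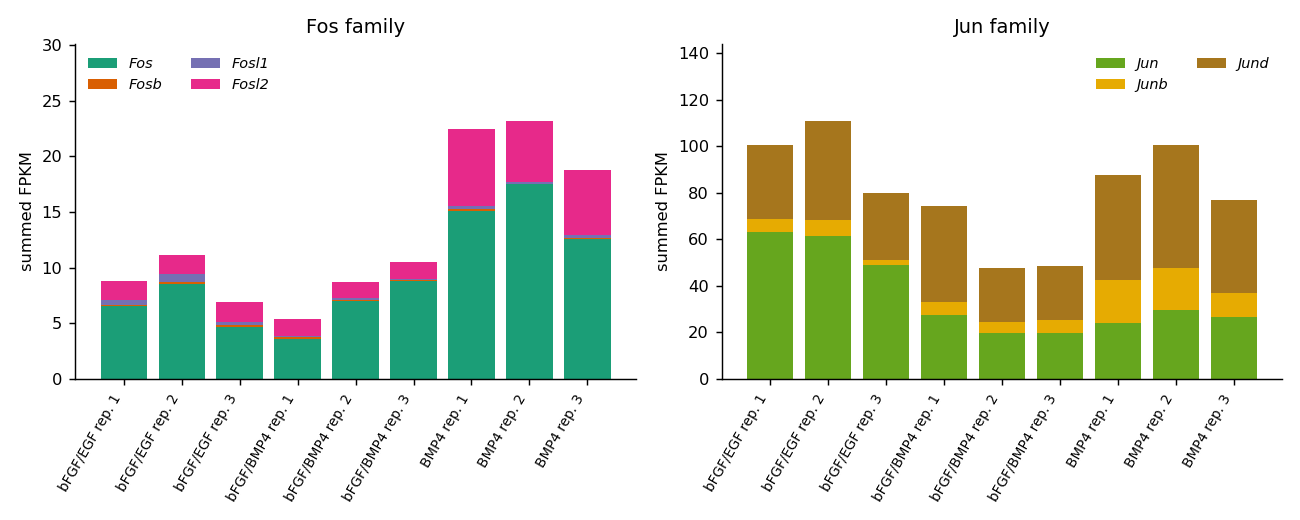
Summed FPKM (y axis, from 0) of the Fos family (left) and the Jun family (right) in each of the 9 libraries (x axis), stacked by gene. The Fos family reaches 18.8 to 23.2 FPKM with BMP4 and 5.42 to 11.1 in the 6 other libraries, and the Jun part of the Jun family is largest with bFGF/EGF.

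The spread between libraries of a group was wide for some of the genes. The SD within groups on the log2 scale was 0.603 for Egr1, 0.521 for Junb and 0.473 for Fos, which lay at the 98th, 97.3rd and 97.2nd percentile of genes of like level (medians 0.214, 0.201 and 0.198). Jund (0.344, 93.4th percentile) and Ier2 (0.337, 93.1st) were also wide. Jun (0.218) was at the 66.1st percentile, Egr2, Fosl1 and Fosb at the 38.2nd, 27.3rd and 10.9th, and Fosl2 (0.105) at the 2.1st. With bFGF/EGF, replicate 3 had the lowest value of 8 of the 10 genes and the highest of 0, and with BMP4 replicate 3 had the highest of 0. On the TPM scale and under median-ratio scaling, added after the data were seen, bFGF/EGF replicate 3 was lowest for 8 and 9 of the 10. It was highest for 1 and 0 of the 10 there, and BMP4 replicate 3 was also highest for 1 and 0. How often each library was lowest or highest over all genes tested was not counted. The 10 genes are not independent of each other, and what set the order of the replicates was not tested.

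**Figure D4:**
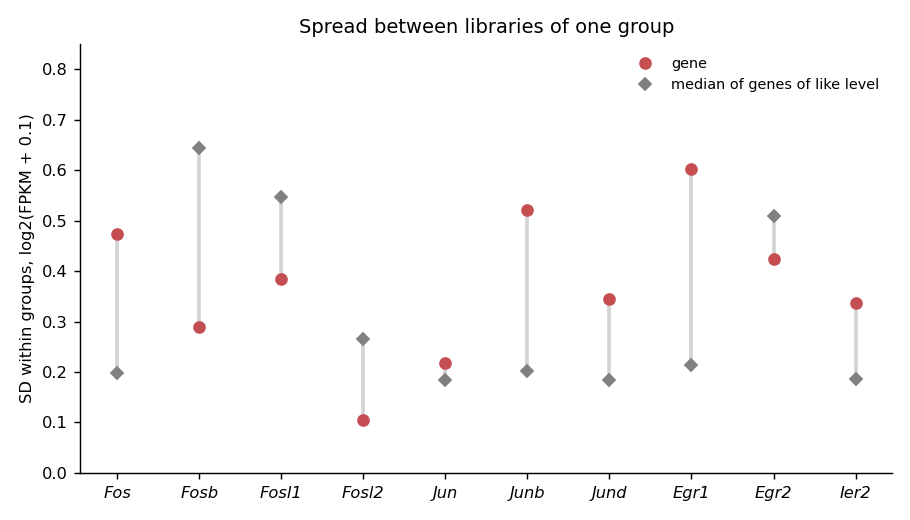
SD within groups of log2(FPKM + 0.1) (y axis, from 0) for each of the 10 genes (x axis, red circles), with the median SD of genes of like level (grey diamonds). Egr1, Junb and Fos stand far above their diamonds and Fosl2 below its own.

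Of 39 other immediate early genes, 15 were called lower and 7 higher with bFGF/BMP4 than with bFGF/EGF, 10 lower and 11 higher with BMP4 than with bFGF/EGF, and 14 higher and 5 lower with BMP4 than with bFGF/BMP4. Higher and lower, these were 17.9 and 38.5%, 28.2 and 25.6%, and 35.9 and 12.8% of the list, against 16.5 and 14.1%, 21.3 and 15.4%, and 8.41 and 5.14% of all genes tested. Their median log2 fold changes were -0.28, -0.04 and 0.50, against 0.06, 0.10 and 0.00 over all genes. Arc, a synaptic protein gene of the early response, had means of 16.3 ± 8.52, 0.243 ± 0.0645 and 0.435 ± 0.130 FPKM (SD, n = 3) and fell by 5.41 on the log2 scale with bFGF/BMP4 and fell by 4.78 with BMP4 (adjusted p = 5.55e-06 and 8.06e-06). The other Egr genes were lower in both day 6 groups as well: Egr3 fell by 4.52 with bFGF/BMP4 (2.77 ± 0.944 to 0.0197 ± 0.00858 FPKM, at most 2 fragments a library) and Egr4 fell by 5.22 with BMP4 (7.12 ± 1.96 to 0.105 ± 0.109 FPKM). Atf3, an AP-1 partner of the stress response that both this list and the partner list hold, stood at 1.37 ± 0.456, 0.252 ± 0.0674 and 6.32 ± 0.733 FPKM. It was thus lower with bFGF/BMP4 and higher with BMP4 than with bFGF/EGF, and rose by 4.20 ± 0.28 (SE) from bFGF/BMP4 to BMP4 (adjusted p = 8.82e-06). Trib1, a pseudokinase gene, went the other way, at 9.38 ± 3.07, 23.8 ± 9.88 and 3.20 ± 0.0808 FPKM, and fell by 2.77 from bFGF/BMP4 to BMP4 (adjusted p = 0.000182).

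**Figure D5:**
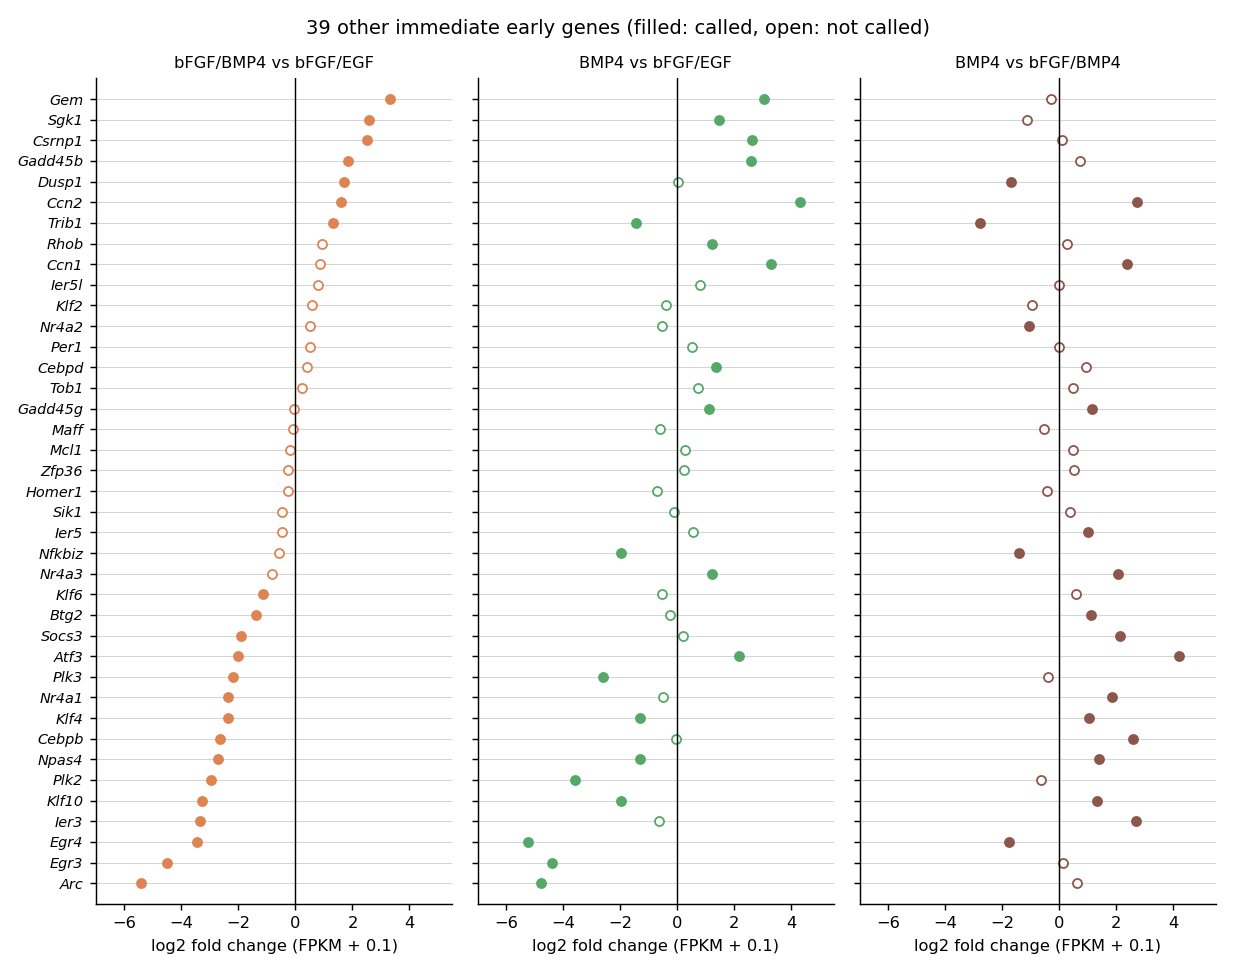
Log2 fold change (x axis, FPKM + 0.1) of 39 other immediate early genes (y axis, in the order of the left panel) in the 3 comparisons, filled where called. Arc, Egr3 and Egr4 are at the far left of both panels against bFGF/EGF, and 14 genes are called higher in the right panel, BMP4 against bFGF/BMP4.

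Among 15 other bZIP genes that can pair in AP-1 complexes 12 were tested, and 2 were called higher and 1 lower in each comparison with bFGF/EGF, and 1 higher (Atf3) and 1 lower (Maf) between the day 6 groups. The shares of 16.7% higher and 8.33% lower against bFGF/EGF compare with 16.5 and 14.1% of all genes with bFGF/BMP4 and 21.3 and 15.4% with BMP4, and the 8.33% in each direction between the day 6 groups with 8.41 and 5.14%. Maf, a large bZIP factor, rose by 3.22 ± 0.12 (SE) with bFGF/BMP4 and by 2.22 ± 0.12 with BMP4, from 1.13 ± 0.0431 to 11.4 ± 0.468 and 5.66 ± 0.395 FPKM, and fell by 1.00 between the day 6 groups (adjusted p = 0.00027). Of the 12 SRF, Ets cofactor and CREB genes, Srf alone was called. It fell by 1.4 ± 0.16 with bFGF/BMP4 and by 1.23 ± 0.16 with BMP4 (17.3 ± 2.82, 6.44 ± 0.727 and 7.30 ± 0.902 FPKM). The 8.33% lower was below the 14.1 and 15.4% of all genes, and the 0% higher below the 16.5 and 21.3%. Between the day 6 groups limma called 0 of these 12, against 8.41% of all genes higher and 5.14% lower. At an unadjusted p under 0.05 by limma, 4 were lower and 3 higher with bFGF/BMP4 than with bFGF/EGF. There were 6 lower and 2 higher with BMP4 than with bFGF/EGF, and 1 higher and 1 lower between the day 6 groups.

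Of 25 genes of the ERK, JNK and p38 cascades, 3 were called higher and 3 lower with bFGF/BMP4, 5 higher and 0 lower with BMP4, and 1 higher and 0 lower between the day 6 groups. The shares higher, 12, 20.0 and 4.0%, were below those of all genes tested (16.5, 21.3 and 8.41%), as was the 12% lower with bFGF/BMP4 (14.1%). At an unadjusted p under 0.05 by limma, with no fold threshold, 11 were lower and 7 higher with BMP4 than with bFGF/EGF, and 4 lower and 8 higher with BMP4 than with bFGF/BMP4. Mapk10, the neural JNK gene, rose by 1.65 ± 0.11 (SE) and 2.26 ± 0.11 (2.67 ± 0.177, 8.57 ± 0.566 and 13.2 ± 0.487 FPKM). Rps6ka5, a kinase that phosphorylates CREB and histone H3, rose by 2.22 ± 0.18 from bFGF/EGF to BMP4 and by 1.25 ± 0.18 from bFGF/BMP4 to BMP4 (adjusted p = 0.000847). Rps6ka1, an ERK-activated kinase, fell by 1.76 ± 0.19 with bFGF/BMP4 (adjusted p = 3.86e-05). These are RNA levels, and the phosphorylation of the kinases was not measured.

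Nab1 and Nab2 encode co-repressors that bind Egr proteins, and Nab2 is known as an Egr-induced gene in other cells. Nab2 fell by 2.51 ± 0.29 (SE) with bFGF/BMP4 and by 3.53 ± 0.29 with BMP4, from 23.4 ± 7.42 to 4.06 ± 1.58 and 1.87 ± 0.156 FPKM, and by 1.02 between the day 6 groups (adjusted p = 0.0316). Nab1 fell by 1.58 ± 0.18 with bFGF/BMP4 (adjusted p = 6.27e-05). Of 6 genes whose proteins bind AU-rich elements, Hnrnpd fell by 1.03 with bFGF/BMP4 and fell by 1.24 with BMP4, Khsrp fell by 1.34 with BMP4, and Zfp36l1, which promotes decay, rose by 1.22 from bFGF/BMP4 to BMP4 (22.0 ± 4.26 to 51.0 ± 6.69 FPKM, adjusted p = 0.000553).

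The 18 genes listed as AP-1 targets, of which 13 were tested, moved in both directions: 6 lower and 3 higher with bFGF/BMP4, 4 lower and 4 higher with BMP4, and 4 higher and 2 lower with BMP4 against bFGF/BMP4. Of the 13, 46.2% were lower and 23.1% higher in the first comparison (all genes 14.1 and 16.5%), 30.8% in each direction in the second (15.4 and 21.3%), and 15.4% lower and 30.8% higher in the third (5.14 and 8.41%). Ccnd1, the cyclin of G1, fell by 5.88 ± 0.22 (SE) with bFGF/BMP4 and fell by 7.44 ± 0.22 with BMP4, from 523 ± 47.6 to 9.13 ± 3.48 and 2.91 ± 0.365 FPKM. Timp1, an inhibitor of matrix proteases, fell by 3.58 with bFGF/BMP4 (adjusted p = 1.01e-05), and Areg, an EGF receptor ligand, fell by 3.05 with BMP4 (adjusted p = 0.00016). Cd44, a hyaluronan receptor, rose by 2.90 ± 0.16 from bFGF/BMP4 to BMP4 (4.19 ± 0.751 to 31.8 ± 4.23 FPKM), and Spp1, which encodes osteopontin, by 2.78 ± 0.17 (2.76 ± 0.178 to 20.1 ± 5.49 FPKM). All of these genes answer other factors too. Of the 14 heat shock genes, 4 were called higher and 1 lower with bFGF/BMP4, 5 higher and 3 lower with BMP4, and 4 higher and 0 lower with BMP4 against bFGF/BMP4. The shares higher were 28.6, 35.7 and 28.6%, against 16.5, 21.3 and 8.41% of all genes, and the shares lower in both comparisons with bFGF/EGF were 7.14 and 21.4%, against 14.1 and 15.4%.

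For Fos, Junb and Egr1 the protein-coding genes with the most similar values were found among 7452 candidates with a mean of at least 5 FPKM, by the root mean square difference of centred log2 values over the 9 libraries. For Fos these were Pxdc1 (0.243), Sulf2 (0.266) and Hsd17b7 (0.286), and for Junb Cdc42ep4 (0.28), Kcnk1 (0.306) and Paqr4 (0.309). For Egr1 they were Sertm1 (0.363), Camk2b (0.439) and Mthfd1l (0.484), with Camk2b at 87.7 ± 11.8, 4.29 ± 0.453 and 3.12 ± 0.0489 FPKM. The libraries of a group enter each of these values, so 3 groups carry most of the likeness.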

How the data were processed

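RNA-seq was performed on 9 libraries in 3 groups of 3. The authors deposited FPKM per gene and library, 1 column a library. Per the labels, the tools named were fastp 0.19.7, HISAT2 2.0.5 and featureCounts 1.5.0-p3 on mm39. The annotation release, the strand setting and the program that computed FPKM are not given in the sources used here. The whole fragment numbers behind FPKM could be rebuilt for 99.99% of the 30860 genes above 0, and each library had been divided by 0.919 to 1.07 times its own fragments, so the authors had scaled the libraries to each other. FPKM are not counts, so the study's count test was not the main test. The study also gives raw counts in its supplement, which were not used here.

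The log2(FPKM + 0.1) of genes with a mean of at least 0.1 FPKM was fitted with limma 3.58.1 (trend, R 4.3.3), all 9 libraries together, and adjusted by Benjamini-Hochberg. The script was tested on simulated data. Symbols, coordinates and sequence came from GENCODE vM39 on GRCm39, and the tables were made with Python 3.11.15, pandas 2.3.3, numpy 2.4.6 and matplotlib 3.10.9. The members and the gene lists were chosen with earlier results of these data known. Named genes were the 10 members, the 2 genes of each list with the largest change among those called in each comparison, and the 3 genes most like each of Fos, Jun, Junb and Egr1 (those of Jun are not reported here); markers were named only when highest in their list or at 0, except Nes, Sox2, Slc1a3, Gfap, Tubb3, Map2, Rbfox3, Hspa8, Hspb1, Hspa1a, Hspa1b and Dnajb4, which were chosen after their values were seen. Alternatives were another pseudocount, other filters, 2 other scalings, a block for the replicate number, limma-voom on rebuilt fragments, fits limited to 2 groups, no fold threshold and each library left out. The same-numbered libraries of the groups deviated together at correlations of -0.084 to 0.125 over all genes tested. These give no sign that the numbers pair the libraries, but cannot exclude a pairing with an effect on few genes.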

Additional observations from a re-analysis of the deposited data

How the results depend on the processing

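Of 501 values of the 10 genes over 17 settings, 487 kept their side of the threshold, 8 fell short of it and 6 passed it. The sign changed in 6 of the 487, with 1 library left out, for 4 differences that were not called: Fos, Fosb and Junb in bFGF/BMP4 against bFGF/EGF and Fosb in BMP4 against bFGF/BMP4. No called value changed its sign under any of these settings. All genes called were 6174, 7400 and 2738 in bFGF/BMP4 against bFGF/EGF, BMP4 against bFGF/EGF and BMP4 against bFGF/BMP4. With a pseudocount of 1 they were 3544, 4364 and 1449. A mean of at least 1 FPKM left 3 of the 10 genes called in bFGF/BMP4 against bFGF/EGF, since Fosl1 and Egr2 were then not tested, and 1800 of all genes in BMP4 against bFGF/BMP4. Without the fold threshold, 9819 genes were called in bFGF/BMP4 against bFGF/EGF and 4271 in BMP4 against bFGF/BMP4. The replicate block gave 5, 6 and 3 of the 10 genes and 6127, 7383 and 2612 of all genes, and it changed no call of the 10. Leaving out 1 library gave 5 to 5, 6 to 7 and 1 to 3 of the 10 genes, and 5740 to 6213, 7000 to 7381 and 2405 to 2719 of all genes. In BMP4 against bFGF/BMP4, 1 of the 10 was called without BMP4 replicate 1 or without BMP4 replicate 2. The cause of these changes was not tested. Depth limits Fosb, with 5 to 17 fragments a library, Fosl1, with 2 to 22, and Egr2 at day 6, with 1 to 12.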
